A study of Mus musculus with 7 samples.

Results

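Induced neural stem cells (iNSCs) are fibroblasts turned into neural stem cell-like cells by reprogramming factors and culture in neural stem cell medium. Here 5 iNSC libraries were compared with 1 library of the mouse embryonic fibroblasts (MEFs) that were the starting cell type. The 5 iNSC libraries and the MEF library make up 6 of the 7 libraries in the series; the seventh, from cortical neural stem cells (cNSCs), served as a reference for position only. Genes were selected where every iNSC library lay at least 2-fold above, or at least 2-fold below, the MEF library on the log2(FPKM + 1) scale, with a level of at least 5 FPKM on the higher side (the mean of the lines, or the MEF value). FPKM counts sequenced fragments relative to transcript length and to the size of the library. Of 24354 genes in the table, 720 were higher in all 5 lines and 914 were lower in all 5, 1634 in all.

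Neural stem cells of the embryonic brain are elongated radial glia that divide at the ventricular surface. SOX and POU factors hold them in a neural progenitor state, Notch signals through HES factors keep them from differentiating, and fibroblast and epidermal growth factors keep them dividing in culture. Fibroblasts instead secrete collagen-rich matrix, pull on it through actin stress fibres, and answer injury and infection with cytokines and interferon-stimulated genes.

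The MEFs came from embryos at embryonic day 13.5 after removal of the head and of the internal organs, spinal cord included. Their genotype was Oct4-CreER x Rosa26-loxSTOPlox-EYFP on the strain C57BL/6-Pou5f1 x 129X1/SvJ. In these mice a tamoxifen-inducible Cre is expressed from the Oct4 gene (Pou5f1), so that a fluorescent reporter can mark cells that switch Oct4 on. The lines pOKSM, pBKSM, mcBKSM clone 1 and mcBKSM clone 3 carry the same genotype and strain labels as the MEFs. The DTA line came from Oct4-CreER x Rosa26-loxSTOPlox-DTA fibroblasts, in which Cre switches on diphtheria toxin, and its strain is labelled unknown. Polycistronic or monocistronic vectors, delivered by lentivirus or retrovirus, were used for the iNSCs, but the labels do not spell out the letters of the line names or say which vector and virus made which line. The cNSCs were cortical cells at embryonic day 13.5 labelled OG2/ROSA26 heterozygous female mice, so genotype and strain differ between cNSC and the other libraries.

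Each library was made from RNA pooled from 2 to 3 biological replicates, so no spread within a line can be read from it. The spread used below is that between the 5 lines, and the lone MEF library was assumed to vary like them. The mcBKSM clones share a name, and the labels do not say whether any of the lines came from separate cultures. All p-values therefore rest on the spread between these lines, moderated by limma across genes, and not on the spread between fibroblast preparations. Genes at or near 0 in every line, such as Ankrd1, have almost no spread between lines. Their standard error comes mainly from the other genes, and their small p-values do not measure how much the MEF level varies. With 5 libraries against 1, an exact permutation test of a single gene cannot go below p = 0.167, and single-gene calls rest on the limma fit across all genes. In bulk RNA, fewer cells of a type and less RNA per cell cannot be told apart.

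Depth was estimated from the steps between low FPKM values at 10.9 to 16.2 M (mega) fragments per library. At this depth 3 fragments on a 2 kb transcript correspond to 0.0929 to 0.137 FPKM, and values near or below that are called at the floor. The floor was not scaled to the transcript length of each gene, and it covers counting error only. A value of 0 is given as listed at 0, with no ratio of FPKM against it. Log2 differences for such genes are given on log2(FPKM + 1), so their size depends on the pseudocount of 1. The labels were checked against marker lists. The summed level of 20 fibroblast genes was 6310 FPKM in MEF and 57.7 to 316 FPKM in the lines. That of 19 neural stem cell genes was 317 FPKM in MEF and 1935 to 8884 FPKM in the lines. Single genes weighed heavily in both sums: S100a4 alone was 3002 FPKM in MEF, and Fabp7 alone reached 5051 FPKM in pBKSM. Among lists of other cell types, cartilage and bone genes summed to 450 FPKM in MEF, of which Spp1 alone was 407 FPKM, and to 25.6 to 42.1 FPKM in the lines. Oligodendrocyte lineage genes summed to 120 FPKM in MEF, of which Pdgfra alone was 108 FPKM, and to 209 to 1546 FPKM in the lines. Olig1 alone was 1295 FPKM in DTA. Astrocyte genes summed to 104 FPKM in MEF and 261 to 1303 FPKM in the lines. In MEF, blood and macrophage genes summed to 6.38 FPKM, with Ptprc at 0.387 FPKM and Csf1r at 0.61 FPKM, endothelial genes to 0.853 FPKM and epithelial genes to 0.467 FPKM. The Y-linked genes Ddx3y, Eif2s3y, Kdm5d and Uty were listed at 0 in MEF, where Xist was 0.182 FPKM, while Ddx3y was 12.5, 11.4, 28.3, 16.2 and 0.0391 FPKM in the lines (order pOKSM, pBKSM, mcBKSM clone 1, mcBKSM clone 3 and DTA) and 16.4 FPKM in cNSC, whose strain label names female mice. The MEF library thus lacked a Y-linked transcript that 4 lines held. Emx2, a transcription factor of the forebrain among other tissues, went against the cNSC label: it was 0.0251 FPKM in cNSC, labelled cerebral cortex. In MEF, whose embryos had lost their heads, Emx2 was 11.4 FPKM. It was singled out after its values were seen.

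Across 13042 tested genes (those with at least 1 FPKM in any library), limma called 2128 at an adjusted p under 0.05, which is 16.3% of the genes tested. Of these, 883 rose in the iNSC lines (6.77%) and 1245 fell (9.55%); 4216 genes had an unadjusted p under 0.05. The selection by fold picked 5.52% of tested genes as higher and 7.01% as lower. It used the same contrast, so its overlap with the calls is a description: 519 of the 720 higher genes and 712 of the 914 lower genes were called, while 364 genes called higher and 533 called lower lay outside the selection. The number of calls depended on the lines included. Without pOKSM, 1147 genes were called, without mcBKSM clone 3, 1417, and without the DTA line, 3193. The median difference over all tested genes was 0.03 on the log2 scale. Below, "rose" and "fell" are used only for called genes, and a gene that was not called is not thereby shown to be unchanged. A log2 difference is the mean of the lines minus MEF in log2(FPKM + 1), a scale that compresses differences of weakly expressed genes. For a gene at or near 0 on one side, its size depends on the pseudocount of 1. Where a call was lost under several alternatives, each was run alone. The 5 line values are always in the order pOKSM, pBKSM, mcBKSM clone 1, mcBKSM clone 3 and DTA.

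**Figure D1:**
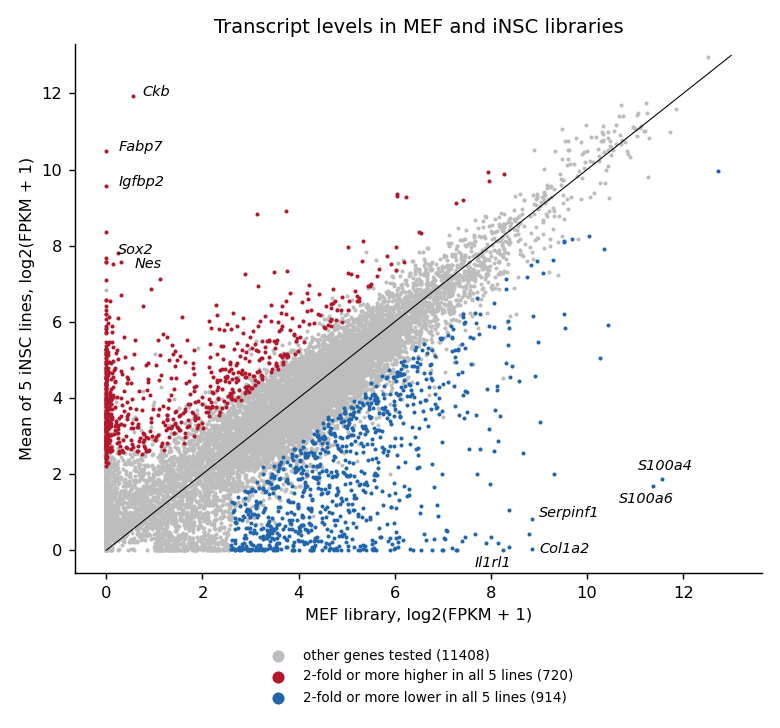
Level of each of the 13042 tested genes in the MEF library (x axis) and its mean over the 5 iNSC lines (y axis), both as log2(FPKM + 1), with the line of equality. Points are genes; the 720 selected as higher lie above the line and reach Ckb at the top, and the 914 selected as lower reach S100a4 and S100a6 at the right, with a large share of either set at or near 0 on its low side.

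Neural transcription factors were called higher far more often than lower. Of 33 tested neural stem cell factors, 14 rose and 2 fell, with a median difference of 3.35 against 0.03 over all tested genes. Sox2 (chr3:34649995-34652461, mm10), the core SOX factor of neural stem cells and a common reprogramming factor, was listed at 0 in MEF and was 277, 87.6, 342, 389.8 and 106 FPKM in the lines, a rise of 7.67 log2 units (SE 0.93, adjusted p = 0.00475). FPKM per gene does not tell transcripts of a vector from those of the cell's own gene. The highest values, in pOKSM and the mcBKSM clones, stood above cNSC (107 FPKM), while pBKSM and DTA were at or below it. Olig2, a basic helix-loop-helix factor of ventral progenitors and the oligodendrocyte lineage, was also listed at 0 in MEF. Its line values were 148, 423, 65.1, 59.5 and 193 FPKM against 247 FPKM in cNSC, a rise of 7.10 log2 units (SE 1.08, adjusted p = 0.0108). All 5 lines were above MEF, and pBKSM was the highest and mcBKSM clone 3 the lowest of them.

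Pax6, a regulator of cortical radial glia, was lower in level and more even: it was listed at 0 in MEF and reached 7.94, 8.75, 5.33, 6.8 and 12.6 FPKM, a rise of 3.17 log2 units (SE 0.42, adjusted p = 0.00695). The other rising factors were Sox21, Olig1, Hes1, Hes6, Hey1, Lhx2, Zic1, Sall3, Npas3, Pou3f2 and Pou3f3. Other members, Sox1, Hes5, Nfia, Rfx4 and Nkx2-2 among them, were at least 2-fold higher in every line without passing the test. Among those that fell, Emx2 was 11.4 FPKM in MEF and 4.52, 2.73, 4.89, 3.74 and 4.47 FPKM in the lines (adjusted p = 0.0421). The Emx2 call was lost with a pseudocount of 0.1, without a filter, with the mcBKSM clones averaged and without pOKSM, mcBKSM clone 1 or mcBKSM clone 3 (adjusted p = 0.0522 to 0.0991). Among the risers the call of Hey1 was lost without pOKSM or mcBKSM clone 1 (adjusted p = 0.0524 to 0.0651), and that of Olig1 without pOKSM (adjusted p = 0.0721).

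Among membrane and matrix proteins by which radial glia are recognised, 11 of 35 tested genes rose, 0 fell and 24 were not called, with a median of 2.61. Bcan, encoding the brain proteoglycan brevican, was listed at 0 in MEF and 178, 413, 86.8, 125 and 317 FPKM in the lines (a rise of 7.58 log2 units, SE 0.86, adjusted p = 0.00385). Ptprz1, a receptor phosphatase of radial glia, was likewise at 0 in MEF and 87.7, 165, 50.8, 56.5 and 182 FPKM in the lines, a rise of 6.58 log2 units (SE 0.79, adjusted p = 0.00464). Cd24a, a surface glycoprotein of neural progenitors, was 0.186 FPKM in MEF and 389.9, 120.4, 391, 486 and 63 FPKM in the lines, highest in mcBKSM clone 3 and lowest in DTA (7.57 log2 units, SE 1.19, adjusted p = 0.012). Gpm6b, a neural membrane proteolipid, rose by 6.01 log2 units (SE 0.998, adjusted p = 0.0143) from 1.15 FPKM in MEF to 65.3 to 338 FPKM. The Notch ligands Dll1 and Dll3 also rose, as did Ttyh1, Nrcam, Cadm1, Cadm4 and Astn1.

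Cytoskeletal and lipid-carrier genes of progenitors held some of the largest and some of the most even rises. Of 30 tested members, 9 rose and 0 fell (median 1.22). Nes (chr3:87971093-87980451), encoding the intermediate filament nestin, was 0.103 FPKM in MEF, at the floor, and 189, 275, 145, 132 and 202 FPKM in the lines, a rise of 7.38 log2 units (SE 0.40, adjusted p = 2.31e-04). Fabp7, the brain fatty acid binding protein of radial glia, was listed at 0 in MEF and 1450.2, 5051, 642, 459 and 2725 FPKM in the lines, a rise of 10.48 log2 units (SE 1.34, adjusted p = 0.0058). Its line values spanned 3.46 log2 units, from mcBKSM clone 3 to pBKSM. Tubb2b, a beta tubulin of the developing brain, rose from 12.4 FPKM to 472, 586, 481, 438 and 436 FPKM (5.17 log2 units, SE 0.21, adjusted p = 9.70e-05). In contrast to Fabp7, its line values lay within 0.43 log2 units of each other and around cNSC (448 FPKM). Marcks and Marcksl1, which encode membrane-bound actin regulators, were chosen after their values were seen: Marcks was 31.7 FPKM in MEF and 179.9 to 413 FPKM in the lines, and Marcksl1 74.4 FPKM against 414 to 802 FPKM. Both rose, Marcks by 2.95 log2 units (SE 0.43, adjusted p = 0.00934) and Marcksl1 by 3.04 log2 units (SE 0.37, adjusted p = 0.00478).

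**Figure D2:**
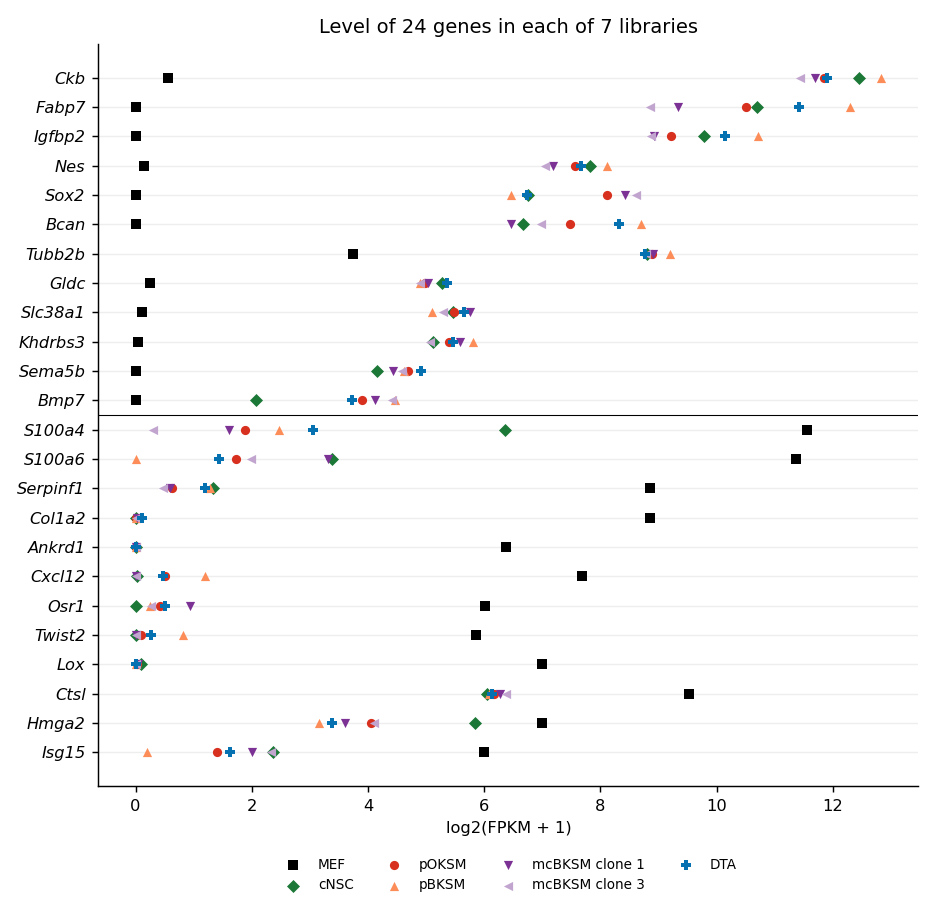
Level of 24 genes as log2(FPKM + 1) in each of the 7 libraries, with 12 genes that rose above the horizontal line and 12 that fell below it. Each symbol is 1 library, without error bars; MEF (black squares) stands apart from every iNSC line for each gene shown, and the lines spread widely for Fabp7 and Bcan but overlap closely for Gldc, Slc38a1 and Sema5b.

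Growth factor receptors and the feedback inhibitors that growth factor signals induce moved in both directions, with 12 of 51 tested members rising, 12 falling and a median of -0.16. The Sprouty proteins and the ETS factor Etv5 are induced by fibroblast growth factor signalling and, for Sprouty, damp it. They were chosen for description after their values were seen. Spry1 was 3.97 FPKM in MEF and 77.1, 90.8, 61.5, 71.4 and 60.6 FPKM in the lines, a rise of 3.87 log2 units (SE 0.25, adjusted p = 4.28e-04). Spry4 rose by 3.76 log2 units (SE 0.51, adjusted p = 0.00714) and Etv5 by 3.81 log2 units (SE 0.51, adjusted p = 0.00697), the latter from 10.2 FPKM to 104 to 247 FPKM. Spry2 rose by 2.75 log2 units (SE 0.56, adjusted p = 0.0277), but its call was lost without pOKSM (adjusted p = 0.0656). Etv4, a close relative of Etv5, was 45 FPKM in MEF and 27.5 to 52.3 FPKM in the lines and was not called (adjusted p = 0.555). The call of Fgfr3 was lost without mcBKSM clone 1 (adjusted p = 0.0539), and that of Pdgfra with a pseudocount of 0.1, without a filter, after quantile normalization, with the mcBKSM clones averaged and without pOKSM, pBKSM, mcBKSM clone 1 or mcBKSM clone 3 (adjusted p = 0.0561 to 0.0898). Also rising in this list were Fgfr3, Ror2, Dusp6, Etv1, Spred1 and 3 insulin-like growth factor binding proteins. Falling were the receptors Pdgfra, Pdgfrb, Fgfr1 and Met, the ligands Fgf7, Igf1 and Nrg1, and Igf2r, Ror1, Dusp5, Errfi1 and Igfbp6.

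Genes of amino acid and energy metabolism gave the single largest difference of the comparison on the log2(FPKM + 1) scale. That rank depends on the pseudocount, because genes such as Fabp7 were listed at 0 in MEF. Ckb (chr12:111669355-111672338), brain creatine kinase, which buffers ATP, was 0.468 FPKM in MEF and 3677, 7296, 3304, 2764 and 3839 FPKM in the lines, with 5593 FPKM in cNSC. The rise was 11.39 log2 units (SE 0.57, adjusted p = 1.71e-04). Gldc, the decarboxylating enzyme of the mitochondrial glycine cleavage system, was 0.186 FPKM in MEF and within a narrow band of 30.6, 28.8, 31.8, 28.9 and 40.1 FPKM in the lines (4.79 log2 units, SE 0.22, adjusted p = 1.26e-04). Slc38a1, a neutral amino acid transporter that carries glutamine, rose from 0.0807 FPKM to 43.4, 33.5, 53.1, 38.1 and 49.5 FPKM (5.35 log2 units, SE 0.27, adjusted p = 1.91e-04). The list as a whole did not stand far from the background, since 6 of 46 tested members rose and 2 fell with a median of -0.03.

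Of 53 tested lipid synthesis genes 14 rose, 5 fell and 34 were not called, with a median of 0.84. From the cholesterol pathway rose, among others, Mvd, Pmvk, Fdps, Fdft1, Lss, Dhcr7 and Tm7sf2, together with Insig1, the sterol-responsive brake on the pathway. Dhcr7, the last enzyme of cholesterol synthesis, was 6.17 FPKM in MEF and 52.9, 51.9, 49.1, 58.9 and 44.7 FPKM in the lines, a rise of 2.87 log2 units (SE 0.17, adjusted p = 3.43e-04). Insig1 rose from 6.14 FPKM to 76.8, 89.9, 53.3, 64.5 and 58.8 FPKM (3.26 log2 units, SE 0.30, adjusted p = 0.00163). Acsbg1, an acyl-CoA synthetase of glia, rose from 0.704 FPKM to 68.6, 113, 63.7, 60.7 and 142 FPKM (5.65 log2 units, SE 0.52, adjusted p = 0.00167). The 5 that fell (Acacb, Elovl1, Fads3, Acsl4 and Cers2) act in fatty acid and ceramide synthesis and not in cholesterol synthesis. Fdft1, squalene synthase, rose by 1.22 log2 units (SE 0.29, adjusted p = 0.0427), a call that was lost with the mcBKSM clones averaged and without pOKSM, mcBKSM clone 1, mcBKSM clone 3 or DTA (adjusted p = 0.0603 to 0.0854).

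Of 46 tested RNA-binding proteins of neural development 6 rose and 4 fell (median 0.47), and of 64 chromatin regulators 10 rose and 2 fell (median 0.43). In neither list was the share that fell above the 9.55% of all tested genes. Khdrbs3, a splicing regulator, was 0.0355 FPKM in MEF, at the floor, and 41.3, 55.2, 47.1, 32.5 and 43.1 FPKM in the lines (5.42 log2 units, SE 0.28, adjusted p = 2.01e-04). Msi1, the translational regulator Musashi, rose from 1.68 FPKM to 19.9 to 36.4 FPKM (3.42 log2 units, SE 0.32, adjusted p = 0.00187), whereas Rbms1 fell from 52.5 FPKM to 3.85 to 7.81 FPKM (-3.03 log2 units, SE 0.41, adjusted p = 0.00687). Chd7, a chromatin remodeller that works with Sox2 in neural progenitors, was 0.0658 FPKM in MEF and 14.1, 15.6, 12.9, 12.3 and 22 FPKM in the lines (3.91 log2 units, SE 0.34, adjusted p = 0.00131). Dpf1, a subunit of the neural form of the BAF remodelling complex, rose by 1.99 log2 units (SE 0.21, adjusted p = 0.00306), from 4.5 FPKM to 16.9 to 23 FPKM. Hmga2, a DNA-bending protein of embryonic mesenchyme and young neural stem cells, fell from 126 FPKM to 15.7, 7.97, 11.2, 16.2 and 9.45 FPKM (-3.33 log2 units, SE 0.40, adjusted p = 0.00475) and in every line was below cNSC (56.7 FPKM).

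Among guidance molecules and secreted signals, called genes lay in both directions, beside 6.77% rising and 9.55% falling over all tested genes. The share of BMP, TGF-beta and Wnt genes that rose was near that background. Of 56 tested axon guidance genes 7 rose and 8 fell (median 0.02), and of 57 BMP, TGF-beta and Wnt genes 4 rose and 10 fell (median 0.50). Sema5b, a transmembrane semaphorin, was listed at 0 in MEF and 24.7, 23.7, 20.6, 23.1 and 29.2 FPKM in the lines (4.65 log2 units, SE 0.22, adjusted p = 1.38e-04), while the secreted Sema3f fell from 33.8 FPKM to 0.37 to 2.37 FPKM (-4.07 log2 units, SE 0.49, adjusted p = 0.00457). The receptor tyrosine kinase Epha2 fell from 31 FPKM to 0.196 to 1.12 FPKM (-4.41 log2 units, SE 0.36, adjusted p = 0.00105). Bmp7, a bone morphogenetic protein, was at 0 in MEF and 13.8, 21, 16.3, 20.2 and 12.2 FPKM in the lines, all of them above cNSC (3.22 FPKM), a rise of 4.12 log2 units (SE 0.35, adjusted p = 0.00119). Grem1, a secreted BMP antagonist, went the other way: it was 125 FPKM in MEF, 0.0457 FPKM in mcBKSM clone 1, under the floor, and listed at 0 in the other lines (-6.96 log2 units, SE 0.14, adjusted p = 1.86e-05). Inhba, the activin A subunit, fell from 18.9 FPKM to 0 to 0.19 FPKM (-4.24 log2 units, SE 0.15, adjusted p = 6.69e-05).

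On the fibroblast side, both chains of type I collagen fell, as did Lox, which crosslinks collagen. Of 26 tested collagen genes, 9 fell, 0 rose and 17 were not called, with a median of -2.003. Col1a1 (chr11:94936224-94953042), a chain of type I collagen, was 439.8 FPKM in MEF and 0.158, 0.152, 0.962, 0.228 and 0.386 FPKM in the lines, a difference of -8.35 log2 units (SE 0.34, adjusted p = 9.29e-05). Col1a2, its partner chain, was 462 FPKM in MEF and 0, 0, 0.0135, 0 and 0.0821 FPKM in the lines (-8.83 log2 units, SE 0.16, adjusted p = 1.86e-05). Col6a3 went from 79.2 FPKM to at most 0.0486 FPKM (-6.29 log2 units, SE 0.15, adjusted p = 2.21e-05). Lox was 127 FPKM in MEF and at most 0.0311 FPKM in any line (-6.98 log2 units, SE 0.14, adjusted p = 1.86e-05). The crosslinkers Loxl1, Loxl3 and Loxl4 fell as well, but Loxl2 rose.

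Other matrix genes fell more often than they rose. Of 42 glycoproteins and proteoglycans 16 fell and 3 rose (median -1.52), and of 46 proteases, inhibitors and crosslinkers 19 fell and 2 rose (median -1.85). Bgn and Dcn, small leucine-rich proteoglycans that bind collagen, went from 331 and 144 FPKM in MEF to at most 0.132 and 0.098 FPKM in the lines (Bgn -8.30 log2 units (SE 0.17, adjusted p = 1.86e-05); Dcn -7.13 log2 units, SE 0.15, adjusted p = 1.94e-05). Serpinf1, a secreted serpin, fell from 463 FPKM to 0.541, 1.43, 0.507, 0.391 and 1.28 FPKM (-8.03 log2 units, SE 0.39, adjusted p = 1.54e-04). Fn1, fibronectin, was 516 FPKM in MEF and 5.2, 9.08, 7.29, 4.36 and 43 FPKM in the lines, where the DTA value was the highest and nearest to cNSC (63.6 FPKM). It fell by 5.63 log2 units (SE 1.13, adjusted p = 0.0264), and this call was lost with the mcBKSM clones averaged and without pOKSM, pBKSM, mcBKSM clone 1 or mcBKSM clone 3 (adjusted p = 0.054 to 0.0671). The 3 matrix genes that rose were Fbn2, Agrn and Lama5.

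Transcription factors and receptors that define mesenchyme fell without exception among those called. Of 32 tested mesenchymal factors 13 fell and 0 rose (median -1.61), and of 39 tested mesenchymal surface receptors 20 fell and 0 rose (median -2.91). Osr1, a zinc finger factor of connective tissue progenitors, was 63.9 FPKM in MEF and 0.346, 0.187, 0.911, 0.201 and 0.412 FPKM in the lines (-5.55 log2 units, SE 0.30, adjusted p = 2.16e-04). Twist2, a basic helix-loop-helix factor of dermal fibroblasts, was 56.8 FPKM in MEF and 0.0698, 0.756, 0, 0 and 0.205 FPKM in the lines (-5.62 log2 units, SE 0.34, adjusted p = 3.46e-04). Snai1, a repressor of epithelial genes, fell from 24.9 FPKM to 0.33 to 1.83 FPKM (-3.73 log2 units, SE 0.45, adjusted p = 0.00475). Il1rl1, the interleukin 33 receptor, was 305 FPKM in MEF, and it was listed at 0 in 4 lines and was 0.0114 FPKM, below the floor, in DTA (-8.26 log2 units, SE 0.15, adjusted p = 1.86e-05). Thy1, a glycoprotein of fibroblasts and neurons, fell from 111 FPKM to 0 to 0.814 FPKM (-6.53 log2 units, SE 0.36, adjusted p = 2.43e-04). Cd34, a sialomucin, fell from 334 FPKM to 0.929, 0.0375, 5.35, 1.98 and 0 FPKM (-7.34 log2 units, SE 1.05, adjusted p = 0.00871), a call that was lost with a pseudocount of 0.1 (adjusted p = 0.0561).

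Contractile actin genes and targets of the coactivator YAP were tested as 1 list. Cells under tension send YAP to the nucleus, where it binds DNA through TEAD factors. Of 49 tested genes 20 fell, 0 rose and 29 were not called, with a median of -1.73. The 4 lower members shown here carry the TEAD motif GGAATG before the start site and span the range from complete loss to partial fall. Each line gives up to 66 bases from the RefSeq promoter table (GRCm38.p6), 5′ to 3′ on the gene's strand, with motif matches on either strand in capitals.
Ankrd1: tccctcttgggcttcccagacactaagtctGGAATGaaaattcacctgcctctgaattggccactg
Acta2: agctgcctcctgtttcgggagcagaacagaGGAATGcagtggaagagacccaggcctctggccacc
Ajuba: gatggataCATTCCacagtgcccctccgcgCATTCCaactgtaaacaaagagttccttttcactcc
Amotl2: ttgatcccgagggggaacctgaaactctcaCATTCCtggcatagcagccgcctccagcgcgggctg

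These windows lie at chr19:36119932-36119997 (minus strand) for Ankrd1, chr19:34255484-34255549 (minus strand) for Acta2, chr14:54577790-54577855 (minus strand) for Ajuba and chr9:102717709-102717774 (plus strand) for Amotl2. Ankrd1, a muscle ankyrin repeat protein widely used as a YAP readout, was 82.5 FPKM in MEF and was listed at 0 in all 5 lines and in cNSC (-6.38 log2 units, SE 0.13, adjusted p = 1.86e-05). Acta2, smooth muscle actin, was 99.8 FPKM in MEF and 0.0662, 0.86, 0.0279, 0.0922 and 0.0972 FPKM in the lines, but 47.5 FPKM in cNSC (-6.40 log2 units, SE 0.38, adjusted p = 3.15e-04). Ajuba and Amotl2, a LIM protein and an angiomotin that act in the Hippo pathway, were chosen after their values were seen and fell partly: Ajuba from 31 FPKM to 8.87, 6.27, 8.32, 9.08 and 9.42 FPKM (-1.78 log2 units, SE 0.26, adjusted p = 0.00886), and Amotl2 from 47.7 FPKM to 15.7, 16.8, 8.78, 14 and 14.5 FPKM (-1.73 log2 units, SE 0.35, adjusted p = 0.0262). The Amotl2 call was lost without pOKSM or mcBKSM clone 3 (adjusted p = 0.0647). Among the 23 members lower in all 5 lines, 20 had a promoter in the table, and 12 of these held GGAATG or its reverse complement within 250 bases before to 50 after the start. Over all 32851 promoters of that length the share was 14.7%. Among all matched genes lower in all 5 lines 105 of 681 held it, and among all matched tested genes 1211 of 10341. The list was written to include YAP targets, which act through TEAD, so its share follows from how it was made and tells nothing about the falls. A match is only a string of letters, and binding was not measured.

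Calcium-binding S100 proteins and annexins, the latter membrane-binding, included genes with very high levels in MEF. Of 20 tested members 12 fell, 0 rose and 8 were not called (median -2.36). S100a4, a marker of motile fibroblasts, was 3002 FPKM in MEF and 2.69, 4.51, 2.06, 0.226 and 7.35 FPKM in the lines (-9.69 log2 units, SE 0.97, adjusted p = 0.00244), while cNSC had 81.1 FPKM, above every line. S100a6 was 2644 FPKM in MEF and 2.33, 0, 8.97, 2.97 and 1.71 FPKM in the lines (-9.67 log2 units, SE 1.12, adjusted p = 0.00402). Anxa3 fell from 237 FPKM to 0 to 0.518 FPKM (-7.72 log2 units, SE 0.28, adjusted p = 6.69e-05). S100 genes lie in a cluster of related sequences, and how multiply mapping reads were counted is not given in the sources used here.

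Of 45 tested chemokine, cytokine and complement genes, which recruit and instruct immune cells, 25 fell, 0 rose and 20 were not called (median -2.17). Cxcl12, a stromal chemokine, was 204 FPKM in MEF and 0.419, 1.29, 0, 0 and 0.385 FPKM in the lines (-7.24 log2 units, SE 0.48, adjusted p = 4.96e-04). Ptgs1, a cyclooxygenase, fell from 40.4 FPKM to 0 to 0.348 FPKM (-5.27 log2 units, SE 0.21, adjusted p = 9.22e-05). Ccl5 was 111 FPKM in MEF and 0.668, 0, 6.19, 4.52 and 3.92 FPKM in the lines (-5.14 log2 units, SE 1.16, adjusted p = 0.037), a call that was lost with a pseudocount of 0.1, with the mcBKSM clones averaged and without pOKSM, mcBKSM clone 3 or DTA (adjusted p = 0.0501 to 0.134). Blood and macrophage genes summed to 6.38 FPKM in MEF and 2.55 to 10.6 FPKM in the lines, with 5 of the 15 measured at 0 in MEF, Hbb-bs, Hba-a1, Cd3e and Cd79a among them; their part in these falls was not tested.

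Interferon-stimulated genes encode antiviral effectors and are switched on through the interferon-stimulated response element (ISRE), bound by the STAT-IRF complex. Of 51 tested members 26 fell, 0 rose and 25 were not called (median -1.77). The promoters below come from lower members with the ISRE core (GAAA, any 2 bases, GAAA) before the start site. They are examples and need not be all such members. They are shown because the shared letters sit close to the start of genes that moved together. The source, build and capitals are as above, and overlapping matches run together.
Isg15: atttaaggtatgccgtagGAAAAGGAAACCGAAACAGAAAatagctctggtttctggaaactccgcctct
Ifit1: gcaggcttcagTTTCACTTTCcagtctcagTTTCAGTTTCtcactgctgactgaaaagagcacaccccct
Gbp2: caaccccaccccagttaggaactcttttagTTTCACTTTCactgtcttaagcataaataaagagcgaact
Igtp: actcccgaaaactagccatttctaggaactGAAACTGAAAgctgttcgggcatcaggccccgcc
Oas1a: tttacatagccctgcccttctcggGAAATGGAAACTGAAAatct

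The windows are chr4:156200845-156200914 (minus strand) for Isg15, chr19:34640774-34640843 (plus strand) for Ifit1, chr3:142620574-142620643 (plus strand) for Gbp2, chr11:58199492-58199555 (plus strand) for Igtp and chr5:120907526-120907569 (minus strand) for Oas1a. Isg15, a ubiquitin-like modifier, was 63.1 FPKM in MEF and 1.64, 0.148, 2.99, 4.04 and 2.1 FPKM in the lines (-4.49 log2 units, SE 0.78, adjusted p = 0.0167), a call that was lost with a pseudocount of 0.1 and without pOKSM (adjusted p = 0.053 to 0.0706). Ifit1, which binds viral RNA, fell from 17.8 FPKM to 0.225, 0, 0.19, 0.12 and 0.473 FPKM (-3.98 log2 units, SE 0.23, adjusted p = 3.10e-04). Xaf1, an interferon-induced pro-apoptotic protein, fell from 22.5 FPKM to 0 to 0.207 FPKM (-4.48 log2 units, SE 0.17, adjusted p = 7.50e-05). Oas1a, an RNA-sensing synthetase chosen after its values were seen, was 6.84 FPKM in MEF, listed at 0 in 4 lines and 0.136 FPKM in DTA (-2.93 log2 units, SE 0.13, adjusted p = 1.16e-04). Gbp2 and Igtp, interferon-induced GTPases chosen likewise, were 8.59 and 5.68 FPKM in MEF and at most 1.66 and 1.26 FPKM in a line. Gbp2 fell by 2.27 log2 units (SE 0.45, adjusted p = 0.0248) and Igtp by 2.16 log2 units (SE 0.41, adjusted p = 0.0219). The Gbp2 call was lost with a pseudocount of 0.1 and without pOKSM or mcBKSM clone 3 (adjusted p = 0.0641 to 0.0749), and the Igtp call with a pseudocount of 0.1, with the mcBKSM clones averaged and without pOKSM, mcBKSM clone 1 or mcBKSM clone 3 (adjusted p = 0.0545 to 0.126). Of the 22 list members lower in all 5 lines only 16 (72.7%) had a promoter in the table, and 7 of these held the core on either strand. The share over all 32851 promoters was 3.44%, but the comparison of shares is void because too few members were matched. GGAATG and the ISRE core are the only motifs reported here, and their letters do not overlap in the windows shown. The plan also named AP-1, SOX, E-box, CArG and NFI motifs, which are not reported here.

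Sensors and effectors of inflammatory cell death were chosen for description after their values were seen. Ripk3, the necroptosis kinase, was 56.2 FPKM in MEF and 0.0937, 0, 3.59, 0.827 and 0.138 FPKM in the lines (-5.16 log2 units, SE 0.86, adjusted p = 0.0145). Casp8, an initiator caspase, fell from 24.4 FPKM to 0 to 1.47 FPKM (-4.17 log2 units, SE 0.50, adjusted p = 0.00457), and Aim2, a sensor of cytosolic DNA, from 8.34 FPKM to 0 to 0.0987 FPKM (-3.16 log2 units, SE 0.12, adjusted p = 7.65e-05). Tlr4, the lipopolysaccharide receptor, fell from 10.5 FPKM to 0.0432, 0.0936, 0, 0 and 0.429 FPKM (-3.39 log2 units, SE 0.23, adjusted p = 5.64e-04), the DTA value being the highest. Casp4, which senses intracellular lipopolysaccharide, fell by 3.64 log2 units (SE 0.60, adjusted p = 0.014). The Ripk3 call was lost with a pseudocount of 0.1 (adjusted p = 0.0655), and the Casp4 call with a pseudocount of 0.1 (adjusted p = 0.112).

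Lysosomal and cell cycle genes stayed nearer the background. Of 46 lysosomal and phagocytic genes 2 rose and 7 fell (median -0.47), and of 46 cyclins, inhibitors and p53 targets 4 rose and 5 fell (median -0.002). Ctsl, a lysosomal cysteine protease that fibroblasts also secrete, fell from 735 FPKM to 71.1, 66.9, 76.7, 81.9 and 69.1 FPKM (-3.32 log2 units, SE 0.16, adjusted p = 1.34e-04). Btg2, an antiproliferative factor of neurogenic progenitors, rose from 3.53 FPKM to 48.3, 64, 62.9, 53.3 and 54.9 FPKM (3.66 log2 units, SE 0.19, adjusted p = 2.11e-04). Cdk6, a G1 kinase, fell from 16.6 FPKM to 0.0508 to 1.02 FPKM (-3.57 log2 units, SE 0.44, adjusted p = 0.00495), a call that was lost with a pseudocount of 0.1 (adjusted p = 0.0545). Among subunits of the AP-1 factor, chosen after their values were seen, Fosl1 fell from 129.9 FPKM to 0.0519 to 0.529 FPKM (-6.71 log2 units, SE 0.26, adjusted p = 8.30e-05), and Fos was 1.11 FPKM in MEF and 17.1, 71.7, 44.1, 25 and 138 FPKM in the lines (4.46 log2 units, SE 1.09, adjusted p = 0.0472). The Fos call was lost without a filter, after quantile normalization, with the mcBKSM clones averaged and without pOKSM, pBKSM, mcBKSM clone 1 or mcBKSM clone 3 (adjusted p = 0.0523 to 0.0965).

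**Figure D3:**
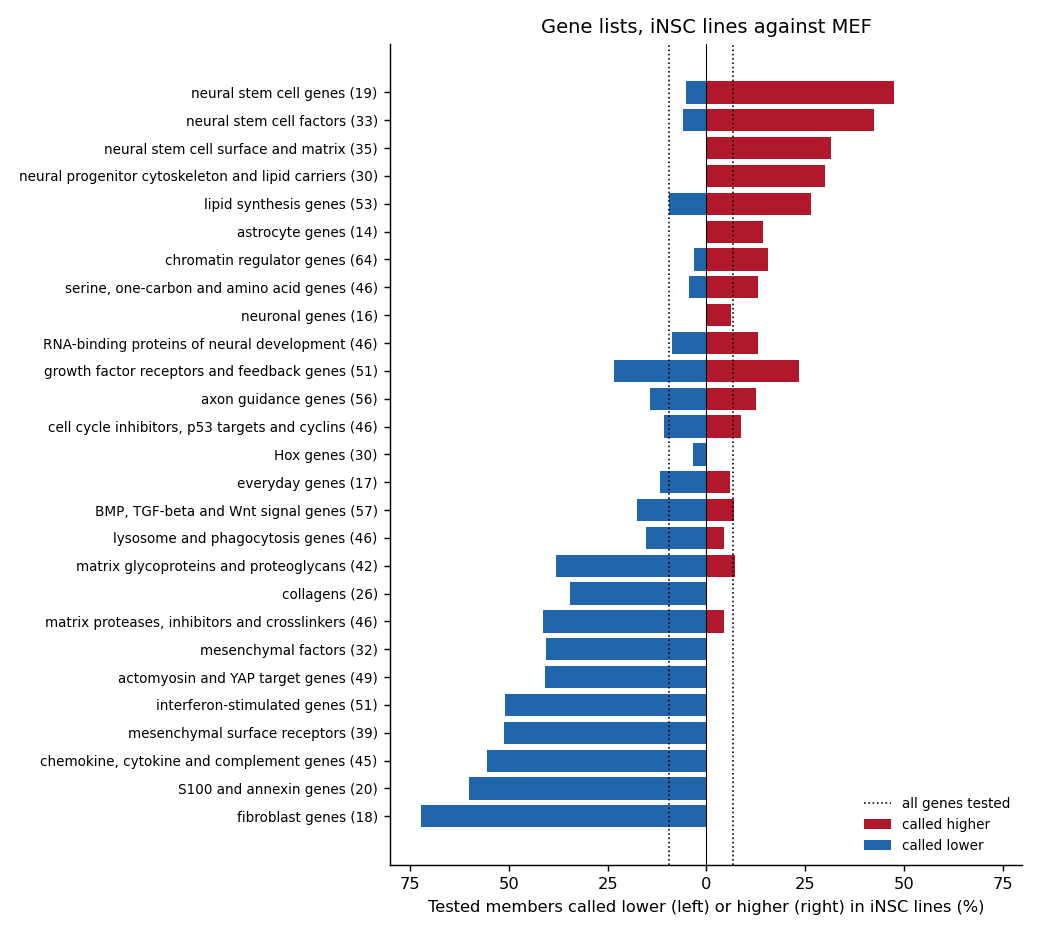
Share of the tested members of each list with at least 14 tested genes (number in brackets) that limma called higher (red, right) or lower (blue, left) in the iNSC lines than in MEF. Dotted lines mark the shares over all 13042 tested genes, 6.77% higher and 9.55% lower; neural stem cell lists extend far to the right, the neuronal list (6.25% higher) does not, and fibroblast, S100, cytokine, surface receptor and interferon lists extend to the left.

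Among genes of other lineages, 4 of 5 tested cartilage and bone genes were called. Spp1, the secreted phosphoprotein osteopontin, was 407 FPKM in MEF and 3.55, 4.8, 7.93, 2.07 and 8.36 FPKM in the lines (-6.13 log2 units, SE 0.64, adjusted p = 0.00284). Runx2, a bone transcription factor, fell by 3.47 log2 units (SE 0.31, adjusted p = 0.0015) and Col2a1 by 1.22 log2 units (SE 0.21, adjusted p = 0.0151), the latter lost with a pseudocount of 0.1 and without pOKSM (adjusted p = 0.0521 to 0.058), whereas Alpl, alkaline phosphatase, rose by 2.97 log2 units (SE 0.35, adjusted p = 0.00442). Of 6 tested muscle genes Pax3 and Tnnt2 fell and Mylpf rose, all of them under 4 FPKM in every one of these libraries. The Pax3 call was lost with a pseudocount of 0.1, with the mcBKSM clones averaged and without pOKSM, mcBKSM clone 1 or mcBKSM clone 3 (adjusted p = 0.0648 to 0.116), and the Mylpf call after quantile normalization, without cNSC, with the mcBKSM clones averaged and without pOKSM, pBKSM, mcBKSM clone 1 or mcBKSM clone 3 (adjusted p = 0.0517 to 0.118). Of 16 tested neuronal genes 1 rose, Map2, a dendritic microtubule protein, from 6.42 FPKM to 112 to 259 FPKM (4.37 log2 units, SE 0.47, adjusted p = 0.00304). The mature neuronal gene Rbfox3, chosen after its values were seen, was higher in pOKSM and the mcBKSM clones than in the other two lines, with 19.9, 1.62, 29.7, 26 and 0.497 FPKM against 0 in MEF and no call. Of 14 astrocyte genes 2 rose; Aldoc, aldolase C, was 0.244 FPKM in MEF and 127, 431, 106, 102 and 411 FPKM in the lines (7.26 log2 units, SE 0.98, adjusted p = 0.00718). Of 10 oligodendrocyte lineage genes 4 rose (Olig1, Olig2, Cnp and Ugt8a), 2 fell (Pdgfra and Cspg4) and 4 were not called; Pdgfra and Cspg4 are also fibroblast and pericyte genes. Of 30 Hox genes, which record position along the trunk, 1 fell and 0 rose. Of 4 tested pluripotency genes, Klf2 and Klf5 fell, though the Klf5 call was lost with a pseudocount of 0.1 (adjusted p = 0.0528). Pou5f1 itself was listed at 0 in MEF and reached at most 0.398 FPKM in a line, under the filter for testing. None of the 3 blood, 2 endothelial and 2 neural crest genes tested was called by limma, and no epithelial gene reached the filter; of the not called, Tyrobp was 1.55 FPKM in MEF, 1.78 FPKM in DTA and listed at 0 in the other lines.

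Some gene families held members that stood on opposite sides. Of 46 small families examined, 7 held at least 1 member higher in all 5 lines and at least 1 lower in all 5. Among insulin-like growth factor binding proteins, Igfbp2 was listed at 0 in MEF and 595, 1682, 483, 469 and 1130.4 FPKM in the lines (9.57 log2 units, SE 0.77, adjusted p = 0.00103). Igfbp3, also at 0 in MEF, rose to 115 to 317 FPKM (7.56 log2 units, SE 0.60, adjusted p = 9.59e-04), and Igfbp5 rose to 20.7 to 130.1 FPKM (6.21 log2 units, SE 0.95, adjusted p = 0.0109). Igfbp6 fell from 257 FPKM to 0.142, 0.154, 0.24, 0.198 and 0.732 FPKM (-7.66 log2 units, SE 0.28, adjusted p = 6.94e-05), Igfbp4 was 182 FPKM in MEF and 68.7 to 573 FPKM in the lines with no call, and Igfbp7 was not called either.

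Cadherins, which join like cells to like, also stood on both sides. Cdh22 was listed at 0 in MEF and 5.61, 6.88, 7.77, 7.34 and 3.76 FPKM in the lines (2.83 log2 units, SE 0.38, adjusted p = 0.00723), and Cdh20, at 0 in MEF, was 27.4, 57.1, 12.1, 15.7 and 33.7 FPKM (4.72 log2 units, SE 0.80, adjusted p = 0.0156; lost without pOKSM (adjusted p = 0.0509)). Cdh11, the mesenchymal cadherin, was 22.3 FPKM in MEF and 2.71, 1.38, 1.16, 1.17 and 5.16 FPKM in the lines (-2.95 log2 units, SE 0.63, adjusted p = 0.0324), a call that was lost with a pseudocount of 0.1, with the mcBKSM clones averaged and without pOKSM, pBKSM, mcBKSM clone 1 or mcBKSM clone 3 (adjusted p = 0.053 to 0.076). Cdh2, N-cadherin, shared by both cell types, was 30.5 FPKM in MEF and 39.7 to 61.7 FPKM in the lines and was not called (adjusted p = 0.171). Beta tubulins held the rise of Tubb2b beside Tubb6, which was 333 FPKM in MEF and 38.3, 73.1, 51.6, 31.4 and 119.9 FPKM in the lines without passing the test (adjusted p = 0.0663), and Tubb5, at 883 and 715 to 999 FPKM.

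Laminins, tetraspanins, NFI factors and CRMP proteins completed the 7. Lama5, a basement membrane laminin chain of the brain surface, rose from 0.354 FPKM to 14.4, 26.3, 14.5, 14.9 and 38.4 FPKM (3.96 log2 units, SE 0.59, adjusted p = 0.00998), and Lamb1 went from 144 FPKM to 27.8, 25.3, 43.7, 38.3 and 57.6 FPKM (-1.94 log2 units, SE 0.45, adjusted p = 0.0406; lost without a filter, after quantile normalization, with the mcBKSM clones averaged and without pOKSM, pBKSM, mcBKSM clone 1 or mcBKSM clone 3 (adjusted p = 0.0512 to 0.088)). The tetraspanin Tspan7 rose from 8.81 FPKM to 55.3 to 91.8 FPKM (2.85 log2 units, SE 0.34, adjusted p = 0.00449) and Tspan13 from 0.0349 FPKM to 12.6 to 48.4 FPKM (4.90 log2 units, SE 0.71, adjusted p = 0.00918), whereas Cd82 fell from 39.3 FPKM to 0.361 to 2.86 FPKM (-4.22 log2 units, SE 0.55, adjusted p = 0.00614). Nfia, a gliogenic NFI factor, was 2.34 FPKM in MEF and 14.4, 32.4, 7.01, 7.58 and 16.7 FPKM in the lines, not called (adjusted p = 0.136), and Nfic was 52.2 FPKM against 9.79, 10.01, 12.3, 11.6 and 20.2 FPKM (-1.995 log2 units, SE 0.39, adjusted p = 0.0247; lost with the mcBKSM clones averaged and without pOKSM, mcBKSM clone 1 or mcBKSM clone 3 (adjusted p = 0.0593 to 0.0632)). Dpysl5, an axon growth protein, rose by 4.54 log2 units (SE 0.67, adjusted p = 0.00959), while its relative Dpysl3 was 151 FPKM in MEF and 46.6, 5.38, 66.9, 56.6 and 37 FPKM in the lines, not called (adjusted p = 0.304).

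The lines shared many differences but not all. Single lines had 1333 (DTA) to 1514 (pBKSM) genes at least 2-fold above MEF, of which 47.6% (pBKSM) to 54.0% (DTA) were among the 720 common to all 5. On the lower side single lines had 1570 (DTA) to 1764 (pBKSM) genes, of which 51.8% to 58.2% were common. Genes higher in exactly 1 line numbered 494 and genes lower in exactly 1 line 589. In contrast, 108 genes were at least 2-fold higher in some lines and at least 2-fold lower in others. The widest of these, chosen after its values were seen, was Mest, an imprinted hydrolase gene expressed from the paternal copy, at 117 FPKM in MEF, 340.4, 286, 269 and 233 FPKM in the first 4 lines and 0.0263 FPKM in DTA. Cdkn1a, the p53-induced cell cycle inhibitor, chosen likewise, was 80.05 FPKM in MEF and 65.3, 274, 33, 9.55 and 275 FPKM in the lines.

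**Figure D4:**
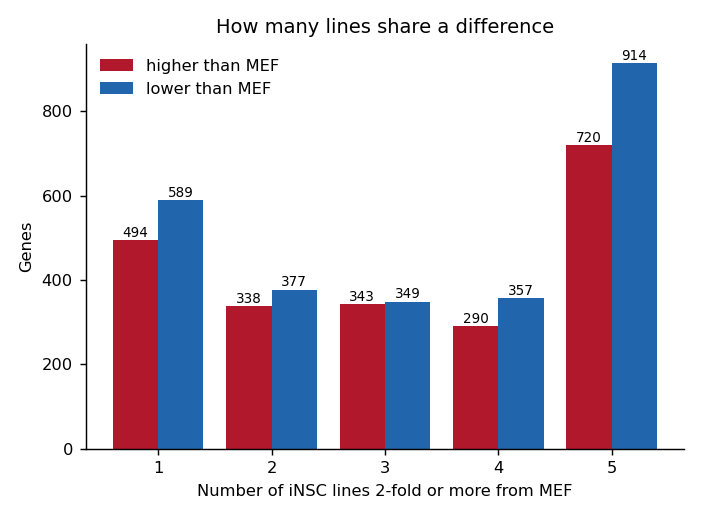
Number of genes (y axis) at least 2-fold higher (red) or lower (blue) than MEF in exactly 1, 2, 3, 4 or 5 of the iNSC lines (x axis), with at least 5 FPKM on the higher side. Bars are counts with no error; the bars for all 5 lines, 720 and 914, are the tallest of their colour.

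Lower genes spread less over the lines than higher genes did. The range between the highest and the lowest line had a median of 1.14 log2 units over the 720 higher genes and 0.83 over the 914 lower genes. It was under 1 for 313 of the higher genes (43.5%) and for 544 of the lower genes (59.5%). This difference was not tested, and genes near 0 FPKM have little room to spread on this scale. Of the lower genes 30 were listed at 0 in all 5 lines, among them Msln (157 FPKM in MEF), which encodes the mesothelial surface protein mesothelin, Medag (109 FPKM), Apol9a (26.8 FPKM), Klra4 (23.8 FPKM) and Ly6a (21.4 FPKM). Klra4, Apol9a and Ly6a belong to families of similar genes, so their FPKM depends on how shared reads were divided. On the higher side 175 genes were listed at 0 in MEF.

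The most even rises were of moderate size. Zfp219, a zinc finger factor, was 9.67 FPKM in MEF and 64.4, 62, 60.3, 68 and 66.6 FPKM in the lines (2.61 log2 units, SE 0.13, adjusted p = 1.55e-04), and Zfp580 was 4.27 FPKM and 27.7, 25.6, 25.5, 27.6 and 24.7 FPKM (2.37 log2 units, SE 0.15, adjusted p = 3.77e-04). Mettl3, the RNA methyltransferase that writes N6-methyladenosine, was 11.7 FPKM in MEF and 30.1, 29.2, 27.3, 26.2 and 30.2 FPKM in the lines (1.22 log2 units, SE 0.15, adjusted p = 0.00466). Lypla2 and Mark3 completed the 5 narrowest, with ranges of 0.14 and 0.21 log2 units. The widest rises were Mlc1, Bcas1, Gpm6a, Nell2 and Ncan. Mlc1, an astrocyte membrane protein, was 0.0283 FPKM in MEF and 54, 195, 8.51, 1.95 and 166 FPKM in the lines, so mcBKSM clone 3 was nearest to MEF while pBKSM and DTA exceeded cNSC (144 FPKM). In Gpm6a and Ncan, too, pBKSM and DTA were the highest lines and mcBKSM clone 3 the lowest, and none of the 5 widest was called (adjusted p = 0.286 for Bcas1, 0.137 for Gpm6a, 0.219 for Mlc1, 0.172 for Ncan and 0.189 for Nell2).

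Among the lower genes with the widest spread the pBKSM line stood lowest each time. Ptrf, the caveola coat protein cavin 1, was 345 FPKM in MEF and 35.9, 1.33, 74.2, 48.1 and 60.1 FPKM in the lines, and Gng10, a G protein gamma subunit, was 127 FPKM and 42.7, 0.0909, 46.2, 44.5 and 35.3 FPKM. Col5a2 was 113 FPKM in MEF and 25.5, 0, 33.9, 33.9 and 17 FPKM in the lines, Plp2 107 and 25.4, 0, 33.5, 31.4 and 11.8 FPKM, and Cyba 69.2 and 13, 0, 33.3, 22.7 and 1.3 FPKM. None of these 5 was called. At the edge of the selection (FPKM in MEF, then lowest to highest line), Fdft1 (14.1; 29.4 to 48.7) and Mark3 (29; 59.2 to 68.7) lay just inside the higher set, and Lrrn2 (0; 0.999 to 40.3) and Zfp444 (2.98; 6.95 to 10.3) just outside. On the lower side Slc35e4 (25.7; 5.81 to 12.3) and Tmem65 (32.8; 7.86 to 15.9) were just inside, and Mcm5 (160.5; 53.1 to 79.8) and Pgm1 (52.5; 8.42 to 25.8) just outside.

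The cNSC library, which the selection did not use, was then placed against the lines. For 353 of the 720 higher genes (49.0%) cNSC lay within the range of the 5 lines, for 259 below all of them and for 108 above all. All 5 lines stood 2-fold or more above cNSC for 36 of these genes and 2-fold or more below it for 18. For the 914 lower genes cNSC lay within the lines' range for 404 (44.2%), above all lines for 395 and below all for 115. In 101 of them every line was 2-fold or more below cNSC, and in 7 every line was 2-fold or more above it. In Col6a1, a type VI collagen gene, the lines stood below both, with 119 FPKM in MEF, 221 FPKM in cNSC and 1.69, 0.949, 0.176, 0.0969 and 2.38 FPKM in the lines. The selection required all 5 lines to stand away from MEF on the same side. A library not used for it can fall on the MEF side of the lines through the selection alone. No share over all tested genes was set beside these counts, which cover 1 cNSC library and were not tested.

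By position in the genome, chromosome 15 held a larger share of lower genes than any other chromosome. On it 88 of 515 tested genes (17.1%) were lower in all 5 lines, against 6.59% of tested genes on the other chromosomes and 4.33% to 9.84% on any single other autosome. The median line minus MEF difference over its 380 genes with a mean of at least 5 FPKM was -0.78 to -0.38, depending on the line. Relative to cNSC, the MEF median was 0.61 higher on chromosome 15, while the line medians were between -0.14 and 0.23. MEF stood above every line in all 11 windows of 10 Mb (MEF minus cNSC medians 0.24 to 1.12), the fewest genes in a window being 6. Chromosome copy number was not measured here. Igfbp6, Ly6a and Apol9a, named above, lie on chromosome 15, as does Myc, which was 47.8 FPKM in MEF and 339, 78.9, 449.6, 485 and 50.1 FPKM in the lines (not called, adjusted p = 0.375). Centring each line's differences on the chromosome median gave 866 lower and 702 higher genes in all 5 lines. Of these, 788 lower and 655 higher genes were also in the selection without centring. Without chromosome 15 there were 826 lower genes.

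**Figure D5:**
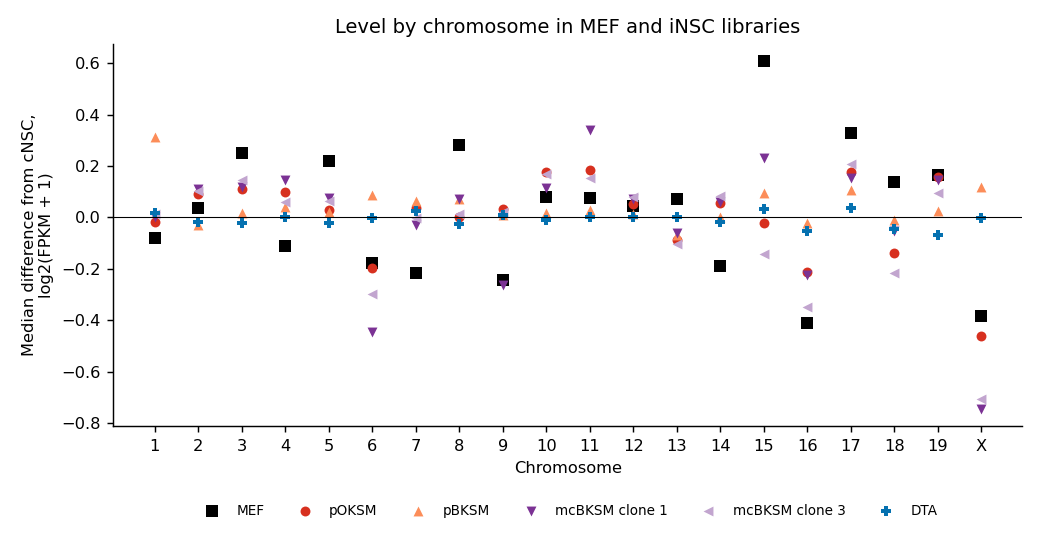
Median difference from cNSC in log2(FPKM + 1) over genes with a mean of at least 5 FPKM, by chromosome (x axis), for MEF (black squares) and each iNSC line (other symbols, no error bars). MEF stands at 0.61 on chromosome 15 while all 5 lines lie between -0.14 and 0.23, and the mcBKSM clones stand lowest on chromosome X.

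Neighbouring genes shared direction in runs of at least 3 consecutive tested genes: 6 runs of higher genes (18 genes) and 16 runs of lower genes (53 genes), among 13001 tested genes with a position; 7 of the lower runs lie on chromosome 15. The longest was of 5 lower genes at chr13:32997061-34002794, from Serpinb9 to Nqo2, which includes protease inhibitors of the serpin family with similar sequences. A run at chr8:94745684-94838830 held the chemokine genes Ccl22, Cx3cl1 and Ccl17 and their neighbour Ciapin1, which is not a chemokine gene. Among the higher runs, Ndn, Mkrn3 and Peg12 lie together at chr7:62348277-62464510 in an imprinted domain expressed from the paternal copy. Chosen after their values were seen, Ndn was listed at 0 in MEF and 24.6, 38.9, 22.7, 21.8 and 3.55 FPKM in the lines (not called, adjusted p = 0.058), and Peg12 was 7.92 FPKM in MEF and 72.5, 64.2, 56.8, 65.6 and 37.2 FPKM in the lines (2.72 log2 units, SE 0.36, adjusted p = 0.00666). Snrpn, of the same domain but outside the run, was at 0 in MEF and 14, 25.1, 7.97, 12.5 and 30.3 FPKM in the lines (4.10 log2 units, SE 0.70, adjusted p = 0.0156). On chromosome X, Bex2 and Bex4, small adaptor proteins of the nervous system, were listed at 0 in MEF and 88.4, 331, 36.8, 44.5 and 60.7 FPKM and 52.4, 53.1, 42.3, 58.2 and 22.2 FPKM in the lines. Bex4 rose by 5.47 log2 units (SE 0.52, adjusted p = 0.00198) and Bex1, a relative on the same chromosome also at 0 in MEF, by 4.79 log2 units (SE 0.71, adjusted p = 0.00974); Bex2 rose by 6.31 log2 units (SE 1.16, adjusted p = 0.0198), a call that was lost without pOKSM (adjusted p = 0.06).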

How the data were processed

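The authors deposited FPKM values per gene symbol for 7 libraries of total RNA. Per the submitters' processing notes the tools included STAR 2.5.2b, then Cufflinks 2.2.1 with Cuffnorm, as well as R 3.3.2, and the build was mm10; no source used here gives the annotation, the strandedness or the settings. FPKM is relative to library size, so changes in total RNA per cell are not visible. Depth was estimated from genes of 2000 to 8000 bases, for which 70.2% to 78.5% of low FPKM values came within 0.1 of a whole number of fragments.

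Values were tested as log2(FPKM + 1) with limma-trend (limma 3.58.1, R 4.3.3) in 3 classes (5 iNSC, 1 MEF, 1 cNSC; 4 residual degrees of freedom). Genes below 1 FPKM in every library were left out, p-values were adjusted after Benjamini and Hochberg over 13042 genes, and the threshold was 0.05. The fit was tested on simulated data. Tables and plots used Python 3.11.15, pandas 2.3.3, numpy 2.4.6 and matplotlib 3.10.9. Genes were placed by symbol or unique synonym with RefSeq (GRCm38.p6, the patched mm10 assembly).

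The members, 36 gene lists and 46 families were chosen with earlier results of these data known; 365 of the 1634 selected genes are in a list or family and 1269 in none. The naming rule gave values for up to 4 called members per list with the largest differences (2 members where none was called), the 10 genes each way with the largest smallest-line difference, the 5 narrowest and 5 widest each way among genes of at least 20 FPKM, 2 genes on each side of the threshold, family members of at least 5 FPKM, and Nes, Sox2, Pax6, Olig2, Col1a1, Thy1, Pou5f1, Pou3f4, Klf4, Myc and sex-linked genes. The text uses part of these, names other called members without values, and says where a gene was chosen after its values were seen. Alternatives were another pseudocount, filters and fold, quantile normalization, no trend, no cNSC, each line left out and, added after the data were seen, averaged clones, centring by chromosome and no chromosome 15. Some genes are not reported here.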

Additional observations from a re-analysis of the deposited data

Results flagged for a closer look

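Among 221 genes whose values were examined, 36 had 1 iNSC line set far apart from the other 4 by Dixon's criterion for 5 samples, applied to log2(FPKM + 1); chance flags about 1 in 20 groups of 5, but part of these genes were named for a wide spread over the lines or after their values were seen, and a gene at 0 in 4 lines meets the criterion by construction, so the count is not compared with chance. Several of these values lie near or under the depth floor, so that a few fragments decide them. Each is given in FPKM with the median of the other 4 lines. pBKSM stood above the others for Acta2 (0.86 against 0.0792), Col6a3 (0.0486 against 0.0173), Eif2s3y (31.2 against 0) and Mitf (1.99 against 1.13). mcBKSM clone 1 stood below the others for Amotl2 (8.78 against 15.1). The DTA line stood above the others for Arhgdib (0.712 against 0), Cdh6 (4.62 against 1.81), Col1a2 (0.0821 against 0), Igfbp6 (0.732 against 0.176), Il1rl1 (0.0114 against 0), Lamc1 (73.7 against 43.7), Lgals3 (2.48 against 0.158), Loxl1 (1.09 against 0.109), Nell2 (232 against 8.71), Oas1a (0.136 against 0), Runx2 (1.1 against 0.33), Tfap2a (4.58 against 0.013), Tlr4 (0.429 against 0.0216), Tspan4 (32.3 against 15.7), Tyrobp (1.78 against 0), Xaf1 (0.207 against 0.0156) and Xist (0.0821 against 0.0104). pBKSM stood below the others for Cln3 (3.86 against 6.98), Col5a2 (0 against 29.7), Dpysl3 (5.38 against 51.6), Gng10 (0.0909 against 43.6), Plp2 (0 against 28.4) and Ptrf (1.33 against 54.1). The DTA line stood below the others for Ddx3y (0.0391 against 14.4), Igfbp5 (20.7 against 95.9), Mest (0.0263 against 277), Ndn (3.55 against 23.7) and Tubb5 (715 against 967). mcBKSM clone 1 stood above the others for Grem1 (0.0457 against 0), Hoxc13 (0.0296 against 0) and Ptgs1 (0.348 against 0.0108).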

How the results depend on the processing

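The count of called genes stayed within 1761 to 3010 under another pseudocount, filter, normalization or trend setting or without cNSC, and was 2002 without chromosome 15 genes and 1527 with the mcBKSM clones averaged. Leaving out 1 line gave 1147 (without pOKSM) to 3193 (without DTA) calls. Of the calls 41.5% were higher as reported, 52.6% with a pseudocount of 0.1 (1175 of 2232) and 29.9% without a filter (901 of 3010). The selection held 353 higher and 436 lower genes at 4-fold, 552 higher where every line had to reach 5 FPKM, and 727 to 863 higher and 919 to 1133 lower with a line left out. Reversals in sign concerned genes that were not called in the fit reported above. Of these, Mest was called higher once DTA was left out, at 1.24 log2 units. With a line left out, Cdkn1a ranged from -0.68 to 0.50 log2 units, Igfbp4 from -0.62 to 0.14, Mest from -0.85 to 1.24 and Tubb2a from -0.083 to 0.21. With the clones averaged Cdkn1a was 0.29 and Tubb2a 0.070, and after quantile normalization Tubb2a was 0.10 and Tubb5 -0.12; the cause was not tested. Of 155 genes with values that were called, 111 kept the call under every alternative fit run over all genes and 44 lost it under at least 1; genes named without values were not followed. No paired analysis was possible because MEF and cNSC have 1 library each. At the estimated depth FPKM under about 0.137 on a 2 kb transcript cannot be told from 0. That limit is higher for shorter transcripts and lower for longer ones. The 1 MEF library carries no spread of its own.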
